A study of Mus musculus with 6 samples.

Results

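The auxiliary and regulatory proteins of voltage-gated sodium channels were followed here through 9 genes, taken as a named list. They were the beta subunit genes Scn2b, Scn3b and Scn4b, the intracellular fibroblast growth factor genes Fgf11, Fgf12, Fgf13 and Fgf14, and the cytosolic regulators Dpysl2 and Nedd4l. All 9 were among the 36528 listed genes, and all 9 passed the filter on low counts, which left 22043 genes. RNA came from lumbar dorsal root ganglia, which hold the cell bodies of sensory neurons with their satellite glia, Schwann cells, fibroblasts and immune cells. Every mouse was female, 12 to 18 weeks old and homozygous for a loxP-flanked Scn9a gene (Scn9a loxP/loxP), which encodes the sodium channel Nav1.7. In 3 mice pCAAG.Cre.ER was present (Pos in the genotype label, here CreER-positive), and 3 mice lacked it (Neg, here control). The floxed gene was thus shared by both groups, and the transgene was the labelled difference between them. CreER is a Cre recombinase fused to an oestrogen receptor domain that tamoxifen activates, and the CAG type of promoter is active in most cell types, so recombination is not limited to neurons by this design. Whether and when tamoxifen was given is not stated in the sources used here. Each library came from 6 ganglia (L4, L5 and L6) of a single mouse.

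Sodium channels consist of a large pore-forming alpha subunit and smaller proteins that bind to it. Beta subunits cross the membrane once, carry an immunoglobulin-like domain outside the cell, and set channel gating, surface level and cell adhesion. Intracellular fibroblast growth factors are not secreted but bind the cytoplasmic tail of the alpha subunit and shift its inactivation, while cytosolic proteins such as CRMP2 (encoded by Dpysl2) and the ubiquitin ligase NEDD4-2 (encoded by Nedd4l) govern how much channel stays at the surface.

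Total counts ranged from 40237131 to 63332040 between libraries. Scn9a itself had 635, 611 and 557 CPM (the usual unit of counts relative to sequencing depth, here also scaled for library composition) in control replicates 1 to 3 and 620, 565 and 574 in CreER-positive replicates 1 to 3, so its count over the whole gene did not separate the groups (log2 fold change -0.04, edgeR quasi-likelihood adjusted p = 0.918). Counts appear to cover introns and exons, and the position of the deletion was not used, so this count is no check of the labels. Neuronal marker genes were abundant in every library, with the 8 pan-neuronal markers summing to 6048 to 7069 CPM. CreER-positive replicate 3 stood apart in some non-neuronal markers. Its 6 fibroblast markers summed to 1583 CPM against 896 to 1170 in the other libraries. The 5 macrophage markers summed to 67.0 CPM there, against 33.0 to 45.4. Skeletal muscle markers summed to 59.2 CPM in control replicate 2 and to 5.65 to 8.46 in the other libraries. In bulk RNA, fewer cells of a type and less RNA per cell cannot be told apart.

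Across the 9 genes, no difference between CreER-positive and control ganglia passed the test. By edgeR's quasi-likelihood test, adjusted over all tested genes by the Benjamini-Hochberg method, 0 of 9 were called, where 0.726% of all tested genes were. DESeq2 called 0 of 9 against a background of 1.93%, and limma-voom called 0 of 9 against 0.721%. At an unadjusted p under 0.05 in edgeR there were 2 of 9 (22.2%), Fgf11 and Dpysl2, against 10.6% of all tested genes. The same 2 genes had groups that did not overlap in CPM, which 15.9% of all tested genes had. With 9 genes, each share moves by more than 10 percentage points when 1 gene changes side. Estimates were positive for 6 genes and negative for 3, with a median log2 fold change of 0.07 beside 0.0026 over all tested genes. The 95% confidence intervals together ran from a log2 fold change of -0.28 to 0.58, which is a fold of 0.826 to 1.496, so differences beyond those sizes lay outside the interval of every gene.

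**Figure D1:**
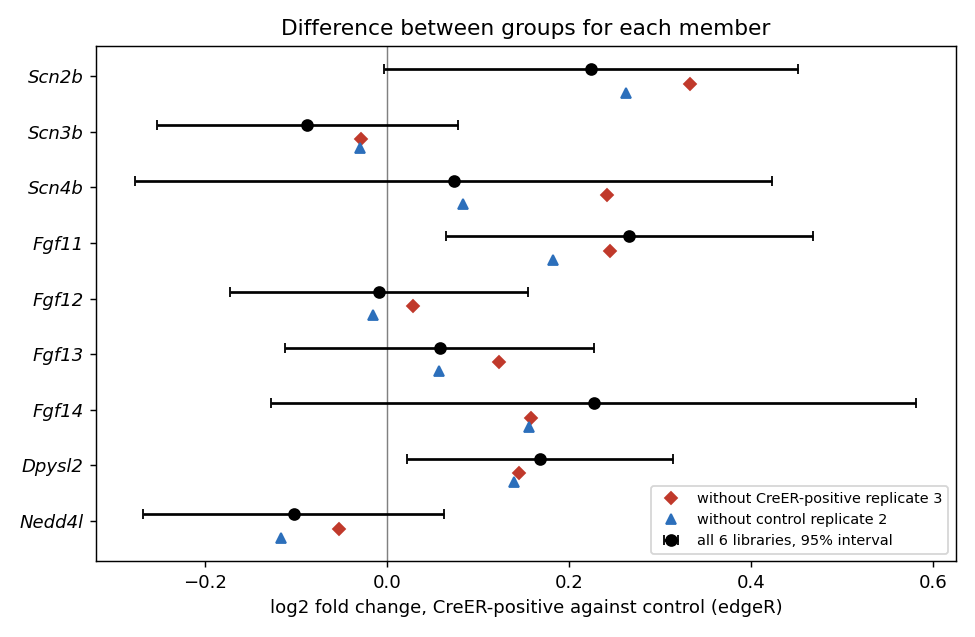
Log2 fold change of CreER-positive against control ganglia for the 9 genes, with points for the estimate and bars for the 95% confidence interval. The Fgf11 and Dpysl2 intervals lie above 0 before adjustment, and Fgf14 and Scn4b have the widest intervals.

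Scn2b encodes a beta subunit that is linked to the alpha subunit by a disulfide bond and binds extracellular matrix and adhesion proteins. Its level was 39.1, 45.6 and 45.4 CPM in control replicates 1 to 3 and 54.4, 54.9 and 42.8 CPM in CreER-positive replicates 1 to 3. CreER-positive replicates 1 and 2 lay above every control, and replicate 3 fell within the control range. Means were 43.4 ± 3.70 (SD, n = 3) and 50.7 ± 6.88 CPM, for a log2 fold change of 0.22 (SE 0.10, 95% interval -0.0029 to 0.45, edgeR adjusted p = 0.483). Without CreER-positive replicate 3, the log2 fold change was 0.33 (SE 0.07) and passed the test (edgeR adjusted p = 0.0431). It was the only one of the 9 genes called in that fit, which called 2.53% of all genes tested in it. With control replicate 2 left out as well, the value was 0.37 and missed the threshold (edgeR adjusted p = 0.101). The part that the fibroblast and macrophage markers of CreER-positive replicate 3 had in this difference was not tested.

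Reads of Scn2b carry a further limit. The gene lies at chr9:45117876-45130070 on the plus strand (GRCm38), and all of it falls within the long noncoding RNA gene Gm10684 (chr9:45107176-45135606) on the minus strand. The count listed for Gm10684 was 106.8% to 109.3% of the Scn2b count in every library, and its log2 fold change was 0.20 (edgeR adjusted p = 0.543). The sources used here do not say whether counting used strand, so reads cannot be assigned to one or the other of the pair.

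Scn4b encodes the beta subunit known as a candidate for the blocking particle of resurgent sodium current in large neurons. In control replicates 1 to 3 it had 187, 221 and 247 CPM, and in CreER-positive replicates 1 to 3 it had 245, 272 and 173 CPM. The highest and the lowest library were both CreER-positive, and the groups overlapped fully. Group means were 218 ± 30.2 and 230 ± 51.0 CPM (SD, n = 3), with a log2 fold change of 0.07 (SE 0.16, 95% interval -0.28 to 0.42, edgeR adjusted p = 0.918). Of 13526 genes averaging 5 CPM or more, 98.0% had a smaller spread within groups than Scn4b, whose SD was 0.28 on the log2 scale against a median of 0.084. Its direction depended on single libraries. Leaving out control replicate 1 turned the log2 fold change to -0.03, leaving out CreER-positive replicate 2 gave -0.06, and leaving out CreER-positive replicate 3 gave 0.24. Large A-fibre neuron markers, 7 genes in all, had control sums of 1308, 1389 and 1587 CPM and CreER-positive sums of 1675, 1877 and 1408 CPM. In CreER-positive replicate 3 the sum lay within the control range, unlike Scn4b. Nefh, at 796 to 1317 CPM, made up most of each sum, and the markers differed among themselves. Ntrk2, like Scn4b, was highest in CreER-positive replicate 2 (189 CPM) and lowest in replicate 3 (160 CPM). Spp1 was highest in replicate 3 (159 CPM). The part of these markers in the spread of Scn4b was not tested.

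Scn3b encodes a beta subunit that binds the alpha subunit without a disulfide bond. Control levels were 125, 138 and 120 CPM, and CreER-positive levels were 128, 122 and 110 CPM. Replicate 3 of the CreER-positive group was the lowest library, and the other two lay inside the control range. Means of 128 ± 9.0 and 120 ± 9.20 CPM (SD, n = 3) corresponded to a log2 fold change of -0.09 (SE 0.07, 95% interval -0.25 to 0.08, edgeR adjusted p = 0.757). Without control replicate 2 the value was -0.03, as it was without CreER-positive replicate 3, and without CreER-positive replicate 1 it was -0.13. The sign turned to 0.03 when control replicate 2 and CreER-positive replicate 3 were both left out.

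The 3 beta subunit genes share chromosome 9, and Scn2b and Scn4b are direct neighbours on the plus strand. Scn4b (chr9:45138624-45154155) starts 8.55 kb beyond the end of Scn2b. In this gap 0 annotated genes lie whole, but Gm10684 reaches into it from the Scn2b side, to position 45135606. Scn3b lies apart at chr9:40269216-40291618. Across the 6 libraries the levels of Scn2b and Scn4b had a Pearson correlation of 0.83 on log2 CPM. To show how the neighbours differ at these starts, the RefSeq promoter windows of GRCm38.p6, 1 for each gene, are printed 5′ to 3′. They run from 250 bases before to 50 bases after the start, with any CCAAT (or ATTGG on the other strand) in capitals. The transcript annotation gives 2 coding starts for Scn2b and 1 for Scn4b, and no window for a further Scn2b start is shown. The Scn2b window is chr9:45117626-45117925 (+), and the Scn4b window is chr9:45138374-45138673 (+).
Scn2b: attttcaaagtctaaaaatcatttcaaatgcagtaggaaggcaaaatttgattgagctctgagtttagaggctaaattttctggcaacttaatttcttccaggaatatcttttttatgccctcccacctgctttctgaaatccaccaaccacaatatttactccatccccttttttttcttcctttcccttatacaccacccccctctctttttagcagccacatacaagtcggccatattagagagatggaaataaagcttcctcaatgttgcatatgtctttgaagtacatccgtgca
Scn4b: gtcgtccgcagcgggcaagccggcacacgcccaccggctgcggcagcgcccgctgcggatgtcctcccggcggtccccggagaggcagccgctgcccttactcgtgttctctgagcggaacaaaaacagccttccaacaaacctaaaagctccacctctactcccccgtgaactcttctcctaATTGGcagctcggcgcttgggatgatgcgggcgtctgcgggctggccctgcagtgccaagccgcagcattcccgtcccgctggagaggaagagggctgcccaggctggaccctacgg
The Scn2b window was AT-rich, with a GC content of 38.3% and a ratio of observed to predicted CpG of 0.200. In the Scn4b window GC content was 66.3% and the CpG ratio 0.795, and over all 32817 promoter windows the medians were 52.7% and 0.383. Both strands were searched for the GC box (GGGCGG, in 35.6% of all windows), the CCAAT box (in 37.4%), the TATA box (TATAAA, in 13.6%) and the E-box (CACGTG, in 7.15%). None of these letters was in the Scn2b window, and the Scn4b window held 1 CCAAT box.

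**Figure D2:**
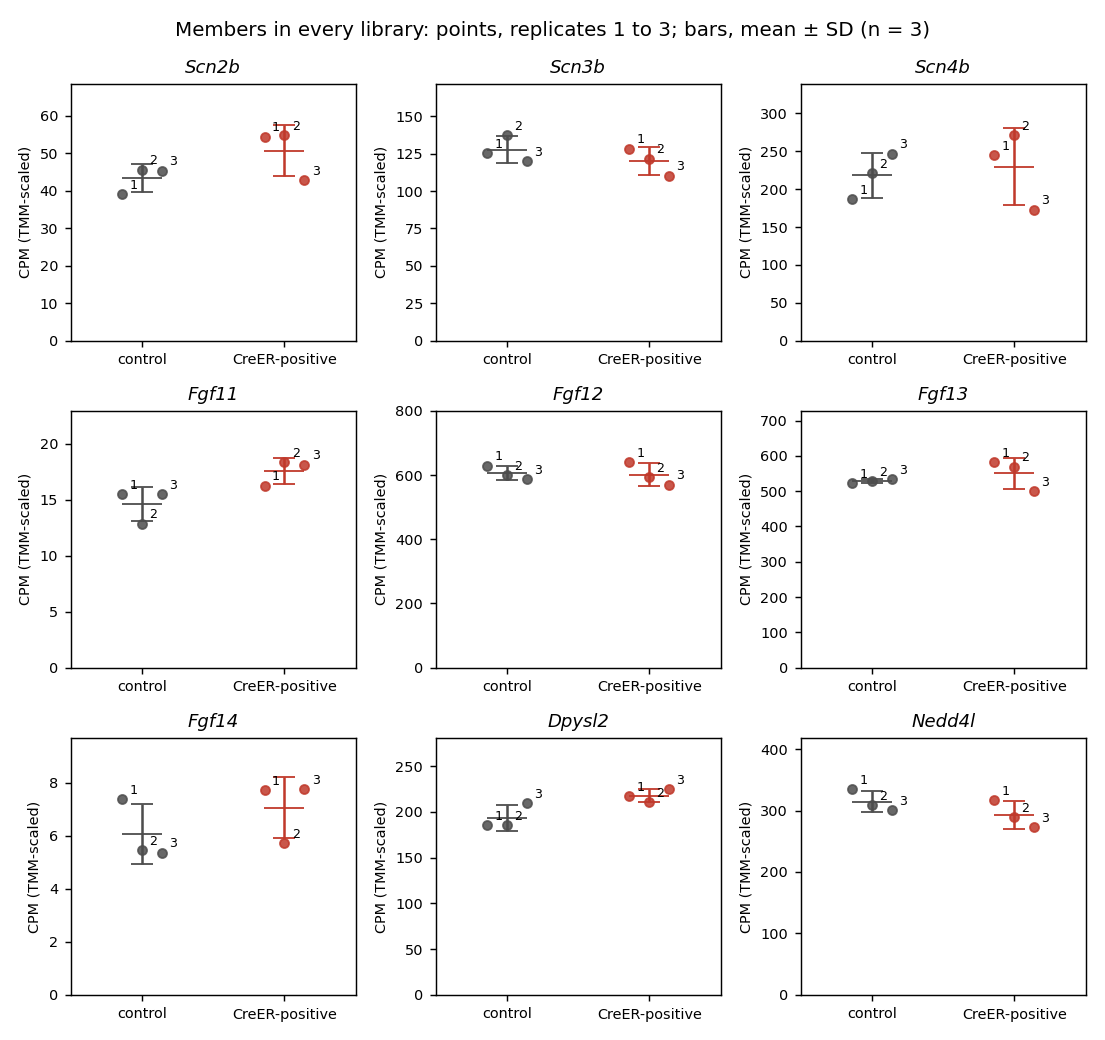
CPM of each of the 9 genes in each library, with 1 point per mouse and a line at the group mean. For Fgf11 and Dpysl2 every CreER-positive point lies above every control point, and for Scn4b the highest and lowest points are both CreER-positive.

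Levels of different genes can be compared only per length, and here the choice of length mattered. Per kilobase of the deposited gene width, which lies between 96.7% and 100.13% of the full span for these genes, control means were 14.5 CPM for Scn4b, 5.69 for Scn3b and 3.56 for Scn2b. Per kilobase of annotated exon they were 43.8, 28.2 and 9.32 CPM, in the same order, although the counts appear to include introns. As a share of the length-scaled sum of the 3 beta subunit genes, Scn2b made up 15.0% ± 0.327 in controls and 16.8% ± 0.763 in CreER-positive ganglia by gene width (SD, n = 3). Every CreER-positive library (16.1% to 17.6%) was above every control (14.6% to 15.2%). The highest share was in CreER-positive replicate 3, where Scn2b itself, at 42.8 CPM, was within the control range. Scn3b (110 CPM) and Scn4b (173 CPM) were at their lowest in that library, so its share does not show a raised Scn2b level. By exon length, which rescales the same counts, the Scn2b share was 11.5% ± 0.115 against 13.1% ± 0.407, also without overlap. Groups without overlap always give the smallest p that 3 against 3 allows (exact two-sided permutation test, p = 0.1 for each length). The Scn2b share was examined after its values were seen, and the limit on Scn2b reads given above applies to it. For the shares of Scn3b and Scn4b the exact two-sided permutation p was 0.4 and 0.9 by gene width and 0.4 and 0.8 by exon length.

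Among the intracellular fibroblast growth factors, Fgf12 and Fgf13 had the highest counts and Fgf14 the lowest. Fgf11 encodes a member of this group that, like the others, has no secretion signal. It had 15.5, 12.9 and 15.5 CPM in control replicates 1 to 3 and 16.3, 18.4 and 18.1 CPM in CreER-positive replicates 1 to 3. All 3 CreER-positive libraries were above all 3 controls. Means of 14.6 ± 1.51 and 17.6 ± 1.15 CPM (SD, n = 3) gave a log2 fold change of 0.27 (SE 0.09, 95% interval 0.06 to 0.47, unadjusted p = 0.0149), which did not pass adjustment (edgeR adjusted p = 0.309). Leaving out single libraries gave 0.18 to 0.32. The lowest value came without control replicate 2 (edgeR adjusted p = 0.753, unadjusted p = 0.0619), and with CreER-positive replicate 3 left out as well it was 0.16 (edgeR adjusted p = 0.422, unadjusted p = 0.0906). Fgf11 is the shortest of the 9 genes (chr11:69796068-69802944, minus strand), and no other annotated gene overlaps it. Its RefSeq promoter window, at an annotated start inside the gene's span and shown because its groups did not overlap, is chr11:69802231-69802530 (-), with 1 CCAAT on the other strand in capitals, a GC content of 52.3% and a CpG ratio of 0.277.
Fgf11: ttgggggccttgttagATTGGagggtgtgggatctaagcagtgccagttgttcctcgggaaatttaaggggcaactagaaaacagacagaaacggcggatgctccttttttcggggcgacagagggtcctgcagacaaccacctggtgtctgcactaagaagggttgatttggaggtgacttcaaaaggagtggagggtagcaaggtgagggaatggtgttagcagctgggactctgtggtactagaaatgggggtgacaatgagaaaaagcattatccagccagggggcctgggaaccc

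Fgf12 encodes a factor that shifts sodium channel inactivation. Its 630, 599 and 587 CPM in controls and 640, 594 and 570 CPM in CreER-positive libraries overlapped, with the control range inside the CreER-positive range. The means were 605 ± 22 and 601 ± 35.4 CPM (SD, n = 3), with a log2 fold change of -0.01 (SE 0.07, 95% interval -0.17 to 0.16, edgeR adjusted p = 0.983). A sign cannot be given for Fgf12, since it changed with the count filter and with single libraries.

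Fgf13 encodes a factor that binds Nav1.7 and other neuronal sodium channels and microtubules, and it has been tied to heat pain in sensory neurons. Control libraries had 523, 528 and 534 CPM, the narrowest range of the 9 genes relative to its mean, and CreER-positive libraries had 582, 569 and 500 CPM. Replicates 1 and 2 were above all controls and replicate 3 was below all of them. The means of 529 ± 5.54 and 550 ± 44.3 CPM (SD, n = 3) gave a log2 fold change of 0.06 (SE 0.08, 95% interval -0.11 to 0.23, edgeR adjusted p = 0.852). Leaving out CreER-positive replicate 1, 2 or 3 in turn gave 0.02, 0.03 and 0.12 (edgeR adjusted p = 0.970, 0.962 and 0.169).

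Fgf14 encodes a factor known for ataxia when mutated, and it was the least abundant of the group. Control counts were 300, 302 and 339 and CreER-positive counts 463, 351 and 412, which came to 7.38, 5.45 and 5.36 CPM against 7.72, 5.71 and 7.74 CPM. The groups overlapped, with control replicate 1 close to the highest CreER-positive libraries. From 6.06 ± 1.14 to 7.06 ± 1.17 CPM (SD, n = 3) the estimate on the log2 scale was 0.23 (SE 0.16, 95% interval -0.13 to 0.58, edgeR adjusted p = 0.690). Without control replicate 1 the value was 0.38 and without CreER-positive replicate 2 it was 0.37, while leaving out any other single library gave 0.14 to 0.16. Its spread within groups was larger than that of 96.7% of the genes averaging 5 CPM or more. Fgf14 (chr14:123974441-124677686, minus strand) overlaps the Itgbl1 gene over 4.42 kb, or 0.63% of its span, and the whole Itgbl1 gene had a count of 140% to 228% of that of Fgf14. Reads in the shared stretch were not counted separately.

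Which fibroblast growth factor was most abundant turned on the length used. By gene width Fgf11 had the highest control level, at 2.13 CPM per kilobase, beside 1.02 for Fgf12, 1.01 for Fgf13 and 0.00866 for Fgf14. By exon length the order was Fgf13 at 179, Fgf12 at 106, Fgf11 at 4.80 and Fgf14 at 1.45 CPM per kilobase. Because counts appear to include introns, any intron reads in these values were divided by exon length alone. Exons make up 0.96% of the width of Fgf12, 0.56% of Fgf13 and 0.60% of Fgf14, but 44.3% of Fgf11. Under both lengths Fgf14 stayed the lowest. As a share of the length-scaled sum, Fgf11 made up 51.0% ± 2.57 in controls and 55.2% ± 3.08 in CreER-positive ganglia by gene width, and 1.65% ± 0.162 and 1.94% ± 0.234 by exon length (SD, n = 3). The groups overlapped under both lengths.

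**Figure D3:**
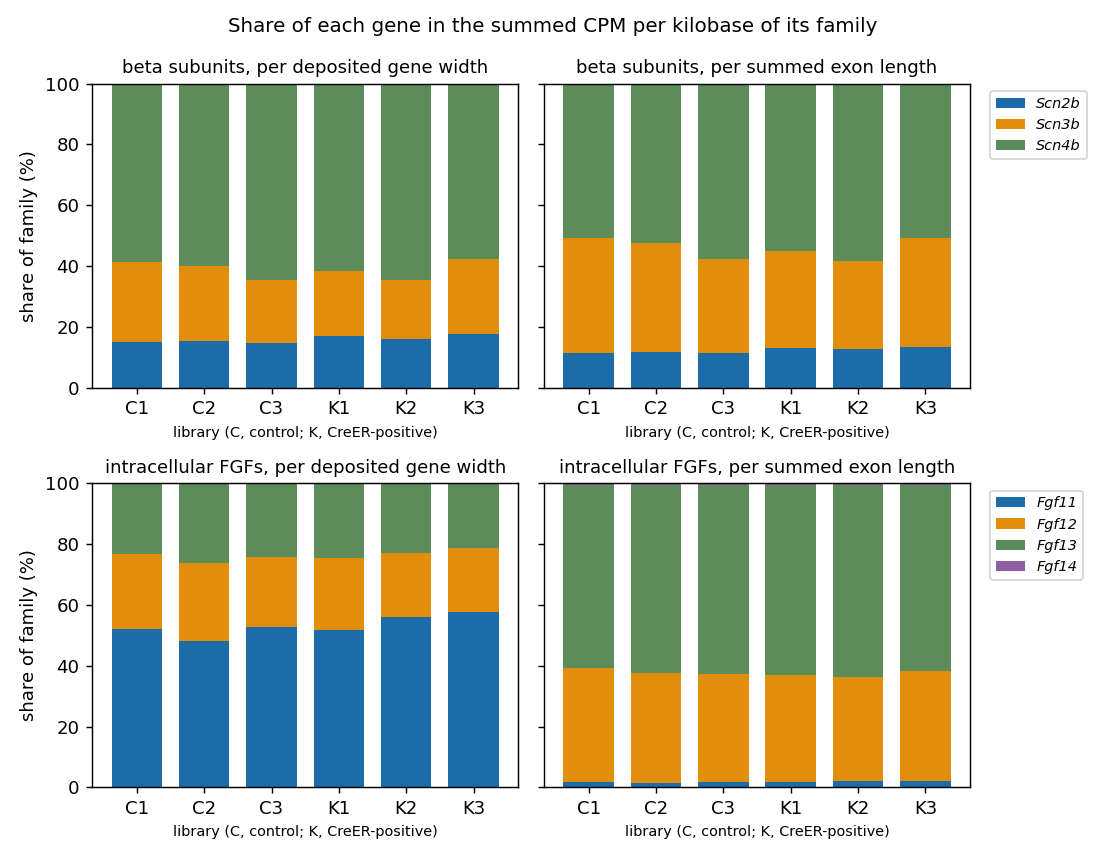
Share of each beta subunit gene and each intracellular fibroblast growth factor gene in the length-scaled sum of its family, by gene width and by exon length, in percent for each library. Scn4b takes the largest beta subunit share under both lengths, while the largest fibroblast growth factor share passes from Fgf11 by gene width to Fgf13 by exon length.

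Dpysl2 encodes CRMP2, a protein of axon growth that, when it carries the small modifier SUMO, keeps Nav1.7 at the membrane. Control libraries held 185, 186 and 210 CPM of it, and CreER-positive libraries 217, 210 and 225 CPM. The groups did not overlap, although control replicate 3 and CreER-positive replicate 2 had nearly the same level. The mean went from 193 ± 13.9 in controls to 217 ± 7.15 CPM (SD, n = 3). A log2 fold change of 0.17 (SE 0.07, 95% interval 0.02 to 0.31, unadjusted p = 0.0286) did not pass adjustment (edgeR adjusted p = 0.401). Leaving out single libraries gave 0.14 to 0.23, and without control replicate 1, control replicate 2 or CreER-positive replicate 1 the unadjusted edgeR p was 0.115, 0.115 and 0.0604. Dpysl2 (chr14:66802864-66911041, minus strand) shares 9.45 kb, or 8.74% of its span, with Pnma2, whose whole-gene count was 31.5% to 51.0% of that of Dpysl2 and whose log2 fold change was -0.19 (edgeR adjusted p = 0.709).

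Nedd4l encodes NEDD4-2, the ubiquitin ligase that marks sodium channels for removal from the membrane. Controls had 335, 308 and 301 CPM and CreER-positive libraries 317, 289 and 273 CPM. CreER-positive replicates 2 and 3 were below every control and replicate 1 was inside the control range. From 315 ± 17.6 to 293 ± 22.5 CPM (SD, n = 3) the estimate on the log2 scale was -0.10 (SE 0.07, 95% interval -0.27 to 0.06, edgeR adjusted p = 0.703), and it was negative in every alternative run, from -0.16 without CreER-positive replicate 1 to -0.05 without CreER-positive replicate 3. Nedd4l spans positions 64884480 to 65217826 of chromosome 18 on the plus strand.

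Several of the genes shared a pattern across libraries that crossed the groups. In CreER-positive replicate 3, 5 of the 9 were at their lowest: Scn3b, Scn4b, Fgf12, Fgf13 and Nedd4l. When that library was left out, 6 of 9 log2 fold changes were higher than with it, and 7 were positive. The shares of all tested genes that did the same are not given here. Summed pan-neuronal markers were also lowest in that library (6048 CPM), so the pattern need not be particular to these genes. Against the control mean on the log2 scale, that library had Scn4b at -0.33 and Scn3b at -0.21, while its summed fibroblast markers stood at 0.61, macrophage markers at 0.77, satellite glia markers at 0.45 and pan-neuronal markers at -0.09. Fgf11, Fgf14 and Dpysl2 did not follow this pattern and were 0.31, 0.34 and 0.22 above the control mean there. Among the satellite glia markers, Fabp7 (375 CPM) and Apoe (1636 CPM) were highest in CreER-positive replicate 3, while Kcnj10, Glul and Slc1a3 were highest in replicate 2. Summed Schwann cell markers were also higher in CreER-positive replicate 2 (4342 CPM) than in replicate 3 (4120 CPM). The part of the non-neuronal markers in these levels was not tested. Of 36 pairs among the 9 genes, 4 had a Pearson correlation above 0.8 over the 6 libraries: Scn2b with Fgf13 (0.88), Fgf12 with Nedd4l (0.87), Scn4b with Fgf13 (0.84) and Scn2b with Scn4b (0.83). The lowest was -0.80, between Scn3b and Fgf11. These correlations describe 6 libraries, and both genes of a pair are read from the same library with its depth and its tissue makeup, so no p is given.

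**Figure D4:**
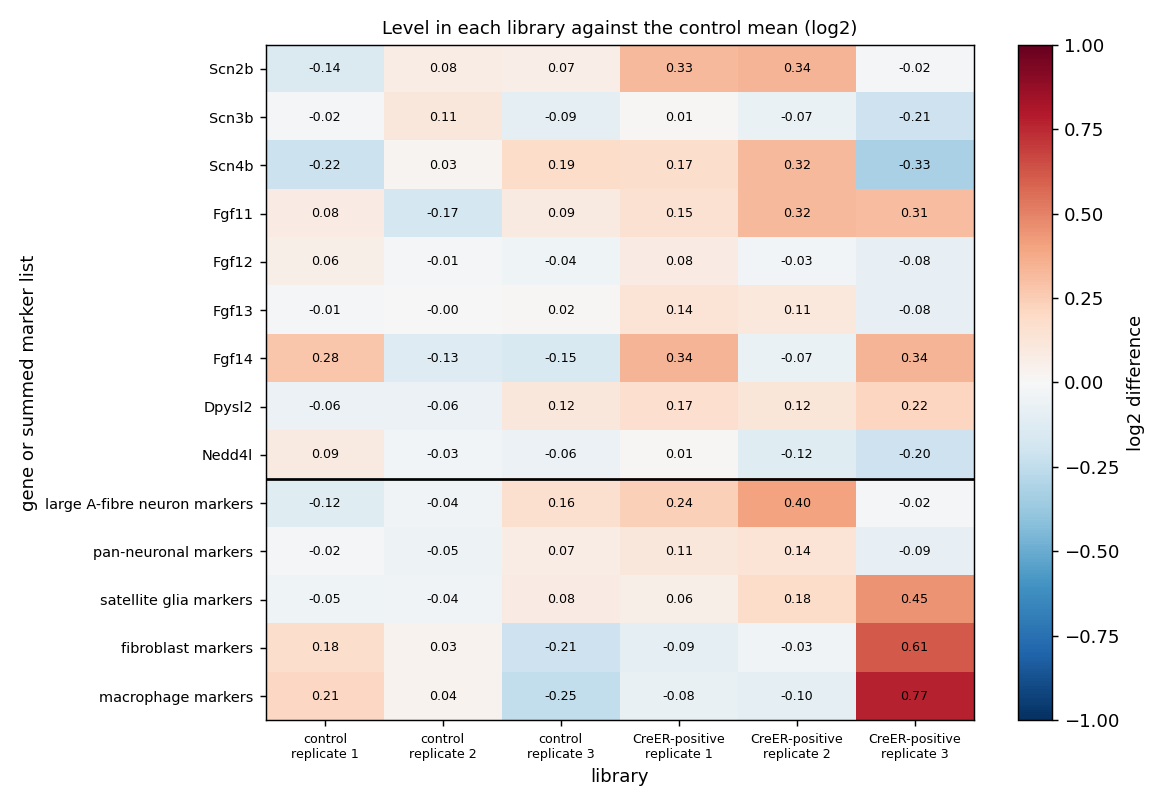
Log2 difference of each gene and of each summed marker list from the control mean, for each of the 6 libraries, with red above and blue below. CreER-positive replicate 3 is low for Scn4b (-0.33), Scn3b (-0.21) and Nedd4l (-0.20) and high for macrophage markers (0.77) and fibroblast markers (0.61).

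Genes that work with these proteins were read from 6 lists holding 63 genes, all of which passed the count filter. In edgeR's quasi-likelihood test 0 were called higher and 1 lower (background 0.726%), and DESeq2 called 3 (background 1.93%). An unadjusted edgeR p under 0.05 was found for 6 (9.52%, against 10.6% of all tested genes), and groups did not overlap for 7 (11.1%, against 15.9%). The median log2 fold change was 0.0055. With any single control library left out, edgeR called 0 of the 63. The call and the 3 DESeq2 calls fell among the 10 alpha subunit genes, whose median was -0.08. Scn10a, which encodes the tetrodotoxin-resistant channel Nav1.8 of pain-sensing neurons, had a mean of 1081 CPM in controls and 869 CPM in CreER-positive libraries without overlap (log2 fold change -0.31, edgeR adjusted p = 0.156, DESeq2 adjusted p = 0.000151). Scn11a, which encodes Nav1.9, had 680 and 579 CPM (-0.23, edgeR adjusted p = 0.234, DESeq2 adjusted p = 0.00970). Pain-sensing neurons express these channels, and of 6 nociceptor markers edgeR called 1 lower and 0 higher, 5 had an unadjusted p under 0.05 and 4 had groups without overlap. The call was Mrgprd, a receptor gene of nonpeptidergic nociceptors, at 139 CPM in controls and 59.8 CPM in CreER-positive libraries (-1.22, edgeR adjusted p = 0.000249), while the neuropeptide gene Tac1 was at 0.39 (edgeR adjusted p = 0.0651, DESeq2 adjusted p = 4.74e-05). The summed level of the 6 markers was 2474 to 2769 CPM in controls and 2917 to 3075 CPM in CreER-positive libraries, and their part in the alpha subunit levels was not tested.

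Partners at the node of Ranvier and in adhesion anchor channels and bind beta subunits. Of these 11 genes, 0 were called by edgeR (background 0.726%) or by DESeq2 (1.93%), and the median was 0.06. Against 10.6% of all tested genes, 1 of the 11 had an unadjusted edgeR p under 0.05. That gene was Cntnap1, which encodes the paranodal protein Caspr (0.24, edgeR adjusted p = 0.444), and the next were Nrcam (0.09) and Cntn1 (0.11). Proteases that cut beta subunits, BACE and gamma-secretase components among them, had 0 of 8 called by either tool, 0 with an unadjusted p under 0.05 and a median of 0.08. Among them Psenen was at 0.26 (edgeR adjusted p = 0.531) and Bace2 at 0.16 (edgeR adjusted p = 0.620).

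For CRMP2, the list of family members and modifying enzymes had 0 of 13 called by edgeR and by DESeq2 and a median of -0.01. Against 10.6% of all tested genes, 1 of the 13 had an unadjusted edgeR p under 0.05. That gene was Fyn, a tyrosine kinase that phosphorylates CRMP2, with 102 CPM in controls and 92.4 CPM in CreER-positive libraries and no overlap (-0.15, edgeR adjusted p = 0.273). Dpysl4, which encodes a relative of CRMP2, was at -0.11 (edgeR adjusted p = 0.677). Relatives and adaptors of NEDD4-2 had 0 of 9 called by either tool and 0 with an unadjusted p under 0.05, with Nedd4 at 0.09, Smurf1 at 0.05 and Sgk1, a kinase that inhibits NEDD4-2, at 0.09, which turned to -0.11 without control replicate 1. Other binding proteins had 0 of 12 called by either tool and 1 with an unadjusted p under 0.05, Gpd1l, which encodes a regulator of sodium channel trafficking (-0.23, edgeR adjusted p = 0.195, no overlap). Mapk8ip2, a scaffold that binds intracellular fibroblast growth factors, was at 0.22, and Prkaca, the catalytic subunit of protein kinase A, at 0.20. Without CreER-positive replicate 3, 5 of the 63 were called by edgeR in a fit with a background of 2.53%, among them Scn10a (-0.28, adjusted p = 0.0308), Cntnap1 (0.35, adjusted p = 0.0455), Mapk8ip2 (0.32, adjusted p = 0.0353) and Prkaca (0.31, adjusted p = 0.0320). With control replicate 2 left out as well, these 4 missed the threshold (edgeR adjusted p = 0.142, 0.141, 0.139 and 0.124), and 1 of the 63 was called. Without CreER-positive replicate 2 instead, Cntnap1, Mapk8ip2 and Prkaca had log2 fold changes of 0.14, 0.13 and 0.12.

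The partner gene whose log2 CPM correlated best with each of the 9 genes over 6 libraries was found among the same 63. For the beta subunits these were Nrcam with Scn2b (Pearson 0.97), Ank3 with Scn3b (0.95) and the alpha subunit gene Scn4a with Scn4b (0.98). Among the fibroblast growth factors Smurf1 went with Fgf13 (0.96), Psen2 with Fgf11 (0.86), Wwp1 with Fgf12 (0.84) and Pdzd2 with Fgf14 (0.70). Psenen was closest to Dpysl2 (0.96) and Prkce to Nedd4l (0.82). Each is the highest of 63 values over 6 libraries and is given as a description.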

How the data were processed

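Gene expression was measured by RNA-seq of total RNA in 6 libraries, 3 per group, grouped by the genotype label; replicate numbers follow accession order, and nothing in the labels pairs the mice. GSNAP was the aligner and GRCm38 (mm10) the build, per the submitters' processing notes. How reads were counted, on which annotation and with which strand setting is not given in the sources used here. The authors deposited, for each library and gene, a whole-number count, the gene's width and its RPKM, per the file headers. The deposited RPKM was not used in any test. Because widths are close to full gene spans, counts appear to include introns.

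Identifiers were matched to GRCm38.p6 symbols (31049 of 36528). Counts were filtered with filterByExpr, scaled by TMM and tested with edgeR 4.0.16 (quasi-likelihood, R 4.3.3), with Benjamini-Hochberg adjustment at 0.05 over 22043 genes. A standard error is the log2 fold change divided by the square root of F. The common biological coefficient of variation was 8.99%. Correlations used log2 CPM plus a pseudocount of 0.5. The edgeR step was tested on simulated data. Alternatives were DESeq2 1.42.0, limma-voom 3.58.1, other scalings and filters, robust fitting, exon lengths and leaving out libraries; the legacy quasi-likelihood setting was added after seeing the data. From each partner list the genes called and the 3 with the smallest unadjusted p were named; some genes that this rule takes are not reported here. The 9 genes and all lists were chosen with earlier results of these data known. Figures were drawn with matplotlib 3.10.9.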

Additional observations from a re-analysis of the deposited data

How the results depend on the processing

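No paired analysis was possible because the labels give each mouse only its own identifier. The number of the 9 genes called by edgeR ranged from 0 to 1 when single libraries were left out; the call was Scn2b without CreER-positive replicate 3, and its log2 fold change ranged from 0.16 to 0.33. Scn4b ranged from -0.064 to 0.24 and Fgf12 from -0.052 to 0.029. Without a count filter Fgf12 was at 0.0020, and with control replicate 2 and CreER-positive replicate 3 both left out Fgf12 was at 0.021 and Scn3b at 0.028. Sgk1 ranged from -0.11 to 0.20 when single libraries were left out, and was at 0.29 without control replicate 2 and CreER-positive replicate 3. The cause of these changes was not tested. Over all genes, edgeR called 160, DESeq2 425, and 60 to 568 when single libraries were left out. Of the 63 partner genes, edgeR called 1, DESeq2 3, and 0 to 5 when single libraries were left out. Fewer libraries also leave fewer degrees of freedom. For Fgf14, 300 to 463 counts per library limit precision.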
